A study of Mus musculus with 16 samples.

Results

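Respiratory complex I is built from subunits whose genes lie in the nucleus and from a smaller set encoded by mitochondrial DNA. Its nuclear genes carry the symbol Nduf, and were taken here as the rows whose symbol starts with Nduf and holds no hyphen, with a mean of at least 1 CPM (reads scaled to a common library size) over the 15 distinct libraries. The rule gave 47 of the 54658 genes listed, of which 39 are counted here as subunits by their symbol and 8, named Ndufaf, as assembly factors. Of the 49 Nduf rows without a hyphen, Ndufa4l2 (mean 0.188 CPM) and Ndufb4c (0 CPM) fell under this minimum. Both rows with a hyphen, Ndufb1-ps and Ndufab1-ps, were left out. Ndufa4 is included by its symbol, although its protein is now counted with complex IV. Ndufa11b and Ndufs6b are also among the 39 but are annotated as processed pseudogenes. These gene copies are 94.8% and 96.6% identical to Ndufa11 and Ndufs6, so reads may be shared between copy and parent.

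Complex I, the NADH:ubiquinone oxidoreductase, is the first proton pump of the respiratory chain. Its N module oxidizes NADH, its Q module hands the electrons to ubiquinone, and its membrane arm pumps protons. The nuclear core subunits (among them Ndufv1, Ndufv2, Ndufs1, Ndufs3, Ndufs7 and Ndufs8) carry the flavin, the iron-sulfur clusters and the ubiquinone site, the accessory subunits surround them, and assembly factors help to build the complex but are absent from its finished form. Neurons and their progenitors depend on it for ATP, and its inherited defects cause encephalopathies such as Leigh syndrome. Strobilurins are fungicides that block the next pump of the chain, complex III, at its ubiquinol oxidation site.

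C17.2α cells, a neural line from mouse cerebellum made to express the thyroid hormone receptor TRα1, were kept in hormone-depleted serum without T3. They were exposed for 24 h to DMSO (2 libraries), azoxystrobin at 100 and 1000 nM, or picoxystrobin, pyraclostrobin or trifloxystrobin at 30, 100, 300 and 1000 nM, with 1 library for each concentration. All groups thus share the line, the receptor and the solvent. The concentrations of a compound stood in as its replicates, and separate cultures are not stated, so p-values measure only the spread between these libraries.

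The library labelled azoxystrobin at 100 nM held the same counts as the second DMSO library in all 54658 genes and was dropped, so azoxystrobin is represented by 1 library and its difference has no replicate check. Totals in the 15 libraries left ranged from 12292390 to 18188099 counts (median 16180381). Picoxystrobin at 1000 nM stood apart from the 3 lower concentrations. The change of all genes against DMSO correlated with transcript GC content at r = -0.53 to -0.67 in those 3 libraries and at r = 0.17 at 1000 nM, a correlation across genes, which are not independent replicates. Both DMSO libraries themselves differed along the same axis (r = 0.28 and -0.28 from their mean). Of the neural progenitor markers, 8 of 10 were at 1 CPM or more, with summed levels of 3164 to 3920 CPM. The summed neuron markers reached 131 to 161 CPM with Rbfox3 at 0, and the astrocyte markers 12.3 to 21.97 CPM with Aqp4 at 0. Of the oligodendrocyte markers, 3 of 5 were at 1 CPM or more (summed 1047 to 1411 CPM), and microglia markers did not exceed 0.521 CPM in sum, with Ptprc at 0. None of the markers tested was called with pyraclostrobin. With picoxystrobin at 30 to 300 nM 2 of 8 progenitor markers fell (edgeR), beside 10% of all genes tested, and 1 of the 8 with a correction for GC content and transcript length. In such bulk samples fewer cells of a type and less RNA per cell cannot be told apart.

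The promoters of the 4 subunit genes that passed the test for picoxystrobin at 30 to 300 nM both with and without a correction for GC content are shown. They are the members whose calls in that comparison did not depend on the correction. Each stretch runs 5′ to 3′ from 250 bases before to 50 bases after an annotated start (RefSeq, GRCm38.p6), with matches to the motif of NRF1, an activator of respiratory chain genes, in capitals. The Ndufa5 stretch is chr6:24527641-24527940 on the minus strand. The Ndufa6 stretch is chr15:82354242-82354541 on the minus strand. The Ndufb5 stretch is chr3:32736813-32737112 on the plus strand, and the Ndufa7 stretch is chr17:33824322-33824621 on the plus strand.
Ndufa5: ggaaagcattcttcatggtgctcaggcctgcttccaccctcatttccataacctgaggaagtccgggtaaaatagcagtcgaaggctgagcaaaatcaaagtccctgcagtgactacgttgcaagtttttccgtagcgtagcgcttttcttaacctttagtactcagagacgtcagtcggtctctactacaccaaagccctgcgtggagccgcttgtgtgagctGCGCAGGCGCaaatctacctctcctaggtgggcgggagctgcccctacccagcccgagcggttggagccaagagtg
Ndufa6: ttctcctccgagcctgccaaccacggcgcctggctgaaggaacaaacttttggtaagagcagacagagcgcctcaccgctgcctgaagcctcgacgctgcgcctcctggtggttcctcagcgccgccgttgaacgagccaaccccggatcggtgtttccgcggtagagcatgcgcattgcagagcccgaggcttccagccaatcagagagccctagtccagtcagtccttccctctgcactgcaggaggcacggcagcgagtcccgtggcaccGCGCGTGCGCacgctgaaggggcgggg
Ndufb5: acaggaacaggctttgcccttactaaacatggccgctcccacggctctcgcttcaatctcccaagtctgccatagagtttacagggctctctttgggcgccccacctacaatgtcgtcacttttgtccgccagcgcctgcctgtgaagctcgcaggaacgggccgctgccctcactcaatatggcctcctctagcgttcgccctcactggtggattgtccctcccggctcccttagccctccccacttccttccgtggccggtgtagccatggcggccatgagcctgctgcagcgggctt
Ndufa7: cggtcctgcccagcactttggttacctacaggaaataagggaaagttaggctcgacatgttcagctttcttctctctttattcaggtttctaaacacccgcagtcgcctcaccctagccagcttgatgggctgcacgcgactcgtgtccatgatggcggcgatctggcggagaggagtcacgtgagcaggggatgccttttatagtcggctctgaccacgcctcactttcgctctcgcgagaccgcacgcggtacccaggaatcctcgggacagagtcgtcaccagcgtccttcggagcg
The match in Ndufa5 begins 26 bases before the start and that in Ndufa6 begins 23 bases after it, while the stretches of Ndufb5 and Ndufa7 hold no match.

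RefSeq promoters were found for 40 of the 47 members, in 42 stretches of this length. The NRF1 motif, searched on both strands as all motifs here, was in 23.8% of the members' stretches, in 10.1% of those of all genes tested and in 4.6% of all promoters. It was found at 9 members, the subunit genes Ndufa5, Ndufa6, Ndufa8, Ndufa11, Ndufb4, Ndufs5 and Ndufs6 and the assembly factor genes Ndufaf4 and Ndufaf5. The YY1 motif (AAGATGGC) was in 19% of the members' stretches, against 4.48% for genes tested and 2.75% for all promoters. The ETS motif of GABPA (CCGGAAGT) was in 2.38% of the members' stretches, against 8.22% and 3.89%. The ESRRA motif (AAGGTCA) was in 7.14%, against 3.01% and 4.72%, and the TATA motif (TATAAA) in 11.9%, against 7.09% and 13.6%. A match describes letters in a window and is not a site. Of the 3 shown genes that rose, Ndufa5 and Ndufa6 hold the NRF1 motif and Ndufb5 does not. The TATA motif is in the stretch of Ndufa7, 52 bases before the start, and in none of the other 3.

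All 47 members were expressed in DMSO. On the scale of CPM per kilobase of the median annotated transcript, Ndufa4 had a level of 617 and Ndufa6, an accessory subunit with the LYR motif that binds acyl carrier protein, a level of 501. The next levels were those of Ndufb5 (279) and Ndufb9 (188), accessory subunits of the membrane arm. At the other end were Ndufb2 (3.997), also of the membrane arm, and the assembly factor Ndufaf5 (6.03), which hydroxylates Ndufs7. These levels depend on the annotated length: taken per longest transcript, Ndufa4 kept rank 1 and Ndufb2 rank 47, whereas Ndufb5 moved from rank 3 to 18. Transcripts of the subunits were short, with a median of 1005 bases for the longest form and a GC content of 51.5%, against 1482 bases and 47.5% for the assembly factors and 3112 bases and 49.3% for all genes tested. Raw counts were lowest for Ndufaf8, the partner of Ndufaf5, with 57 to 104 reads per library.

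Most subunit genes were somewhat higher in all 4 pyraclostrobin libraries. The median change of the 39 subunits against the DMSO mean was 0.17, 0.14, 0.23 and 0.20 (log2) at 30, 100, 300 and 1000 nM, while the median of all genes tested stayed within 0.01 of 0 in each. Of the 39 subunits, 32, 32, 34 and 33 lay above the DMSO mean in these libraries. In 22 of 39 subunits and 4 of 8 assembly factors all 4 pyraclostrobin libraries exceeded both DMSO libraries, against 18% of all genes tested. The 22 include the pseudogenes Ndufa11b and Ndufs6b. No member had all 4 below (18.8% of all genes tested). With the GC content and length of transcripts corrected for, 12 subunits had all 4 above and 3 had all 4 below, against 16.4% of all genes tested in each direction. The mean of the subunit medians went from 0.19 ± 0.04 (SD, n = 4) to 0.12. The corrected medians were uneven, at 0.08, 0.03, 0.16 and 0.19 (log2) at 30, 100, 300 and 1000 nM. In these libraries 28, 25, 31 and 28 subunits were then above the DMSO mean.

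**Figure D1:**
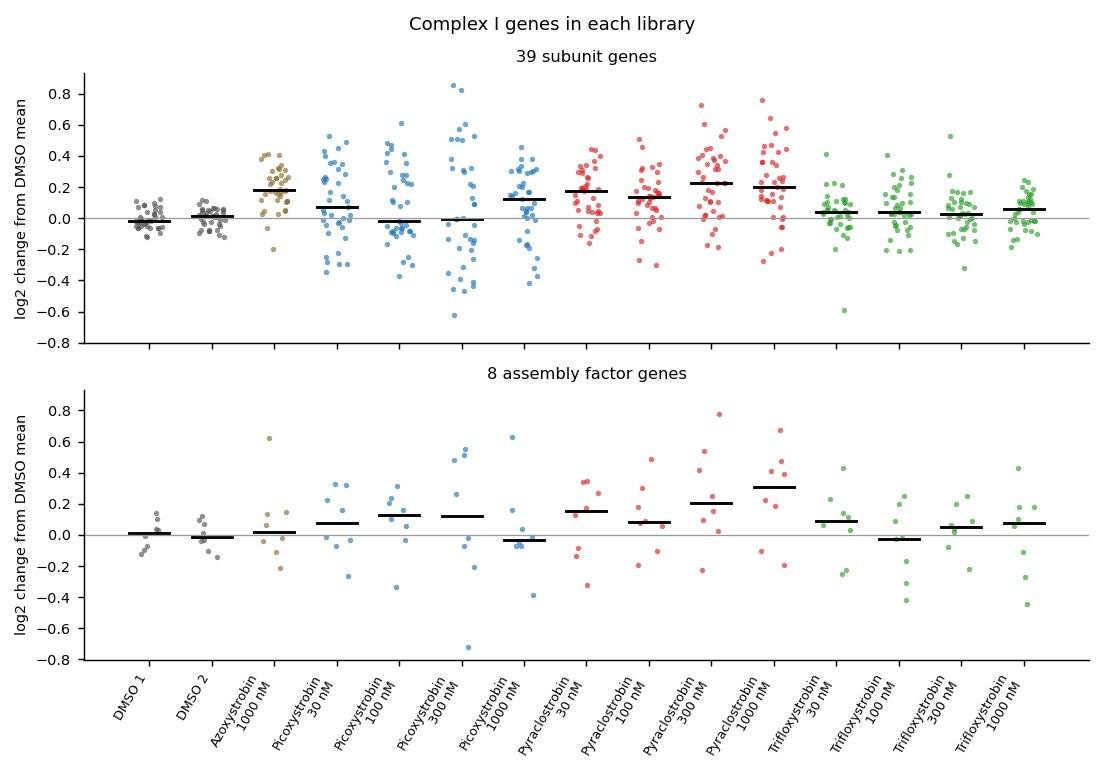
Change of each complex I gene against the DMSO mean (vertical axis, log2) in the 15 libraries (horizontal axis), with 39 subunits above and 8 assembly factors below. Points are genes and bars are medians, and the bars of the subunits lie at 0.14 to 0.23 in the 4 pyraclostrobin libraries and at 0.03 to 0.06 in the 4 trifloxystrobin libraries. All values are without the GC correction.

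In the edgeR quasi-likelihood test, 2 members, both subunits, rose with pyraclostrobin at a Benjamini-Hochberg adjusted p under 0.05, beside 0.293% of genes tested called higher, 1.02% called lower and 1.31% called in all. Another 11 subunits reached only an unadjusted p under 0.05, all higher, as 11.1% of all genes tested were higher at that level. Ndufa2 is an accessory subunit of the N module with a thioredoxin-like fold. It was at 87.4 and 93.6 CPM in DMSO and at 123, 113, 124 and 126 CPM with pyraclostrobin at 30, 100, 300 and 1000 nM. Ndufb3, an accessory subunit of the membrane arm (chr1:58586384-58595964), was at 21.01 and 21.98 CPM in DMSO and at 27.7, 30.6, 35.6 and 36.5 CPM. In both genes the lowest pyraclostrobin library was above the higher DMSO library. With the GC correction Ndufa2 remained called and Ndufb3 did not, while Ndufa13 was called higher. The share of all genes called in that fit is not given here. Ndufa2 rose by 0.42 ± 0.08 (log2, SE; 95% interval 0.26 to 0.59; edgeR adjusted p = 0.0324) and Ndufb3 by 0.60 ± 0.13 (0.32 to 0.89; edgeR adjusted p = 0.0485). Both calls depended on single libraries, since with 1 library left out Ndufa2 was called in 7 of 15 fits and Ndufb3 in 5 of 15, and the number of members called went from 2 to 7 without picoxystrobin at 1000 nM and to 0 without either DMSO library.

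The assembly factors moved by a like amount with pyraclostrobin, and none was called. Their median was 0.15, 0.08, 0.20 and 0.31 (log2) at the 4 concentrations. The subunit median minus the assembly factor median averaged -0.00 ± 0.07 (SD, n = 4). Ndufaf1 (chr2:119655446-119662827), part of the assembly complex of the membrane arm, was at 35.0 and 38.5 CPM in DMSO and at 44.3, 45.2, 49.05 and 51.1 CPM with pyraclostrobin. All 4 values were above both DMSO libraries, with a difference of 0.37 ± 0.11 (edgeR adjusted p = 0.0952). Ndufaf2, a paralog of Ndufa12 that acts when the N module is attached, went from 10.9 and 10.5 CPM to 13.6, 11.4, 18.5 and 17.1 CPM, a difference that was not called (edgeR adjusted p = 0.155). Ndufaf2 shares 65.6% of its exon bases with genes on the opposite strand, and the strand setting of the counting was not given in the sources used here. DESeq2 called 4 members with pyraclostrobin, which were Ndufa2, Ndufb3, Ndufa5 and Ndufaf1, and the share of all genes it called is not given here.

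Subunits with all 4 pyraclostrobin libraries above both DMSO libraries were also counted by part of the complex, beside 18% of all genes tested. They were 8 of 10 in the N module and 2 of 6 in the Q module. In the membrane arm they were 5 of 9 in the part near the Q module and 5 of 11 in the far part. With the GC correction such subunits were 12 in all, against 16.4% of all genes tested, and were not counted by part. Differences between these small groups were not tested. The medians of the fitted changes were 0.21, 0.08, 0.14 and 0.24 (log2), respectively, and 0.16, 0.08, 0.03 and 0.11 with the GC correction. Of the core subunits, Ndufv1, Ndufv2 and Ndufs1 of the N module were among those above, while Ndufs3, Ndufs7 and Ndufs8 of the Q module were not. Ndufs1, the largest subunit, with iron-sulfur clusters (chr1:63143596-63176833), was at 65.6 and 68.1 CPM in DMSO and at 83.5, 73.8, 84.9 and 85.9 CPM with pyraclostrobin. Ndufv1, which binds NADH and the flavin, was at 46.1 and 44.4 CPM and then at 51.9, 50.8, 48.6 and 49.4 CPM. Ndufv2, its iron-sulfur partner, was at 104 and 113 CPM and then at 115, 122, 114 and 119 CPM. None of these core subunits was called, and the fitted change was 0.30 ± 0.11 for Ndufs1 (edgeR adjusted p = 0.127), 0.15 ± 0.16 for Ndufv1 and 0.12 ± 0.10 for Ndufv2, which turned to -0.06 with the GC correction.

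In these core subunits of the Q module the pyraclostrobin libraries overlapped with DMSO. Ndufs3 was at 20.04 and 16.9 CPM in DMSO and at 18.9, 18.5, 19.8 and 21.2 CPM with pyraclostrobin. Ndufs7 and Ndufs8 carry the iron-sulfur clusters nearest to ubiquinone. Ndufs7 was at 100.4 and 93.5 CPM in DMSO and at 93.5 to 110 CPM with pyraclostrobin, and Ndufs8 was at 116 and 103 CPM in DMSO and at 90.2 to 114 CPM. Their fitted changes ran from -0.13 ± 0.14 for Ndufs8 to 0.09 ± 0.13 for Ndufs3 (log2), with edgeR adjusted p-values of 0.586 to 0.817.

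**Figure D2:**
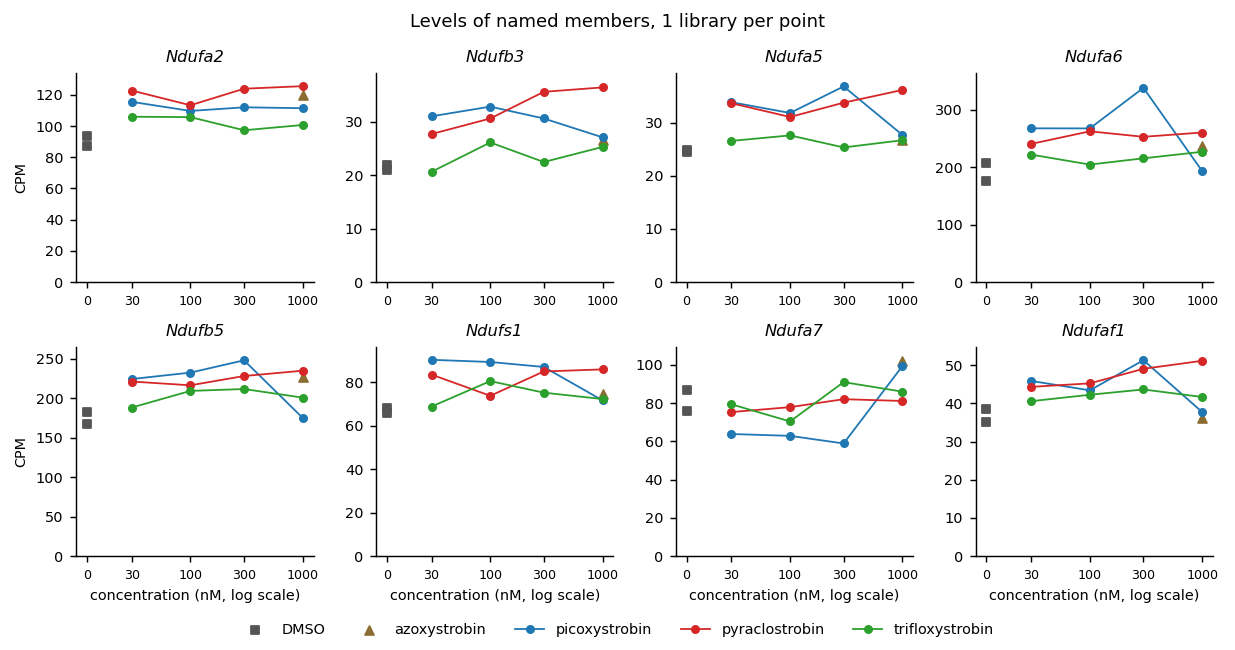
Level in CPM (vertical axis, from 0) of 7 subunits and the assembly factor Ndufaf1 against concentration in nM (horizontal axis, log scale, DMSO placed at 0). Each point is 1 library, and with picoxystrobin Ndufa6 runs from 267 CPM at 30 nM to 338 CPM at 300 nM and 193 CPM at 1000 nM.

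Picoxystrobin at 30 to 300 nM moved complex I genes in both directions. With the library at 1000 nM given a level of its own, 15 members passed the test at 30 to 300 nM: 10 subunits and 1 assembly factor rose, and 4 subunits fell. Among all genes tested 9.13% rose and 10% fell. The subunit median was 0.07, -0.02 and -0.00 (log2) at 30, 100 and 300 nM, and 25, 19 and 19 of the 39 subunits were above the DMSO mean. With the GC correction the medians were 0.08, 0.06 and 0.08, with 26, 23 and 25 subunits above. All 15 had their 3 libraries apart from both DMSO libraries, which follows largely from their selection by a test of these same libraries and is no further support.

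Ndufa6 (chr15:82350140-82354322) was at 175 and 207 CPM in DMSO and at 267, 267 and 338 CPM with picoxystrobin at 30, 100 and 300 nM. Ndufb5 (chr3:32736990-32751566) was at 167 and 182 CPM in DMSO and at 224, 232 and 248 CPM. Ndufa5, an accessory subunit of the Q module (chr6:24518666-24528013), was at 24.5 and 24.9 CPM in DMSO and at 33.8, 31.8 and 36.8 CPM. In all 3 genes the lowest picoxystrobin library was above the higher DMSO library. The rise was 0.60 ± 0.11 for Ndufa6 (log2, SE; edgeR adjusted p = 0.00444), 0.43 ± 0.08 for Ndufb5 (edgeR adjusted p = 0.00509) and 0.47 ± 0.10 for Ndufa5 (edgeR adjusted p = 0.00702). With GC content and length in the model the changes were 0.69, 0.37 and 0.38, and all 3 remained called (edgeR adjusted p = 0.0172, 0.0196 and 0.0482).

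Ndufs1 was at 90.3, 89.3 and 87.0 CPM with picoxystrobin at these concentrations and Ndufb3 at 31.1, 32.9 and 30.6 CPM, all above DMSO. They rose by 0.41 ± 0.09 (edgeR adjusted p = 0.00820) and 0.55 ± 0.13 (edgeR adjusted p = 0.0116). Both lost their calls with the GC correction, at 0.23 (edgeR adjusted p = 0.118) and 0.25 (edgeR adjusted p = 0.328). Ndufaf1, at 45.9, 43.4 and 51.3 CPM, was the assembly factor that rose, by 0.35 ± 0.10 (edgeR adjusted p = 0.0228), and its change was 0.13 after the correction (edgeR adjusted p = 0.385). Ndufa4 was at 261 and 306 CPM in DMSO and at 353, 348 and 431 CPM, and rose by 0.41 ± 0.10 (edgeR adjusted p = 0.0166). With GC content in the model its change was 0.00. The other subunits that rose were Ndufa2, Ndufc1, Ndufc2 and Ndufs4, by 0.31 to 0.59, and they are named here after their values were seen.

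The subunits that fell were Ndufa3, Ndufa7, Ndufa11 and Ndufb9, likewise named after their values were seen. Ndufa7, an accessory subunit of the N module (chr17:33824572-33838317), was at 87.1 and 76.1 CPM in DMSO and at 63.9, 62.9 and 58.9 CPM with picoxystrobin. These 3 values were below both DMSO libraries, and the change was -0.40 ± 0.10 (log2; edgeR adjusted p = 0.0163) and -0.54 after the GC correction (edgeR adjusted p = 0.0220). Ndufb9, a LYR-motif subunit of the membrane arm, was at 139 and 126 CPM in DMSO and at 109, 109 and 104 CPM.

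GC content differed between the members called in either direction, with overlapping ranges. The transcripts of the 10 subunits that rose had a median GC content of 46.6% (40.3% to 53.7%), those of the 4 that fell 53.9% (49.4% to 57.95%), and those of the 25 not called 52.2%. Ndufa6 rose at a GC content of 53.7% and Ndufa7 fell at 49.4%. With both GC content and length corrected for, 4 of the 15 calls remained, and these were Ndufa5, Ndufa6, Ndufb5 and Ndufa7. Without the first DMSO library the count was 0, and without picoxystrobin at 300 nM it was 6. The part of GC content in these differences beyond the values given here was not tested.

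**Figure D3:**
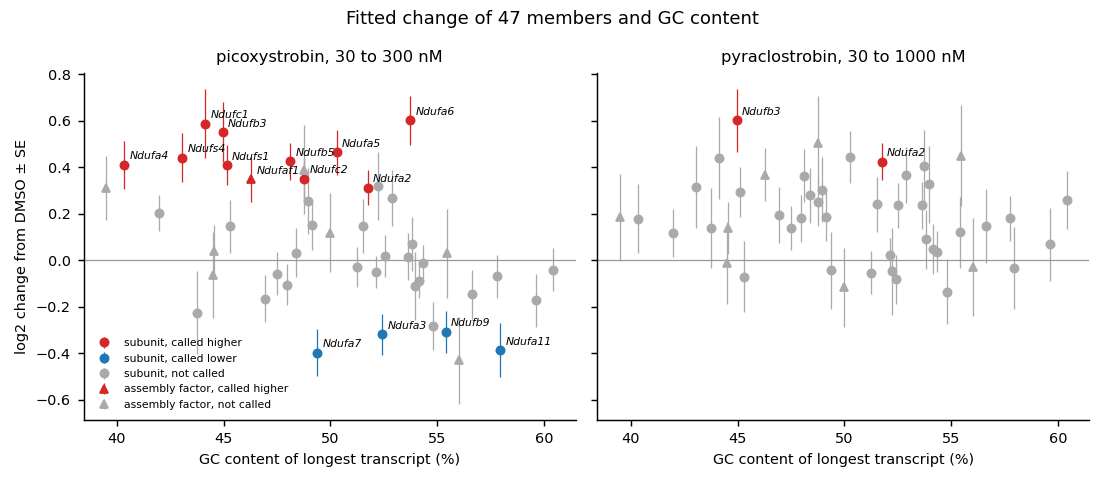
Fitted log2 change from DMSO with its SE (vertical axis) against GC content of the longest transcript in percent (horizontal axis) for the 47 members, with picoxystrobin at 30 to 300 nM on the left and pyraclostrobin at 30 to 1000 nM on the right. Coloured and named points passed the test, and on the left the 10 subunits that rose have a median GC content of 46.6% against 53.9% for the 4 that fell.

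At 1000 nM, picoxystrobin did not extend the values of the lower concentrations. Of the 11 members that rose at 30 to 300 nM, 10 lay on the DMSO side of the 3 lower libraries at 1000 nM, the exception being Ndufa2, and 5 were still above both DMSO libraries. All 4 members that fell were also on the DMSO side at 1000 nM, and none was below both DMSO libraries. Because these members were selected by their values at 30 to 300 nM, a shift toward DMSO in another library can follow from that selection. The same counts over all called genes were not made, so they are not a result particular to complex I. Ndufa6 was at 193 CPM, Ndufb5 at 175 CPM, Ndufa7 at 99.4 CPM and Ndufb9 at 165 CPM, whereas Ndufa2 was at 116, 110, 112 and 111 CPM over the 4 concentrations.

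With all 4 picoxystrobin libraries as 1 group, edgeR called 0 of the 47 members, and 0.0286% of all genes tested (0.00714% higher, 0.0214% lower). At an unadjusted p under 0.05 there were 10 higher and 1 lower, against 7.7% and 9.08% of all genes tested, and DESeq2 called 1 member, Ndufa2. Its change was 0.31 ± 0.08 (log2; 0.14 to 0.48; edgeR adjusted p = 0.172). Ndufaf1 changed by 0.28 ± 0.11 (0.04 to 0.52; edgeR adjusted p = 0.254). In 9 of 39 subunits all 4 libraries were above both DMSO libraries and in 2 of 39 all 4 were below, against 11.6% and 13.4% of all genes tested. No assembly factor was in either class. Without the library at 1000 nM, 15 members were called. In the fit that gave that library a level of its own, 19.2% of all genes tested were called.

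Trifloxystrobin left complex I genes near DMSO. The subunit median was 0.04, 0.04, 0.03 and 0.06 (log2) at 30, 100, 300 and 1000 nM, and the assembly factor median was 0.09, -0.02, 0.05 and 0.08. In 7 of 39 subunits and 1 of 8 assembly factors all 4 libraries were above both DMSO libraries, against 7.55% of all genes tested, and 0 members had all 4 below (7.78%). With the GC correction 9 subunits had all 4 above and 1 had all 4 below, against 7.01% and 6.83% of all genes tested. The test with edgeR called 0 members and 0% of all genes, with 1 member and 1.71% of all genes at an unadjusted p under 0.05, and DESeq2 called 0. The gene of smallest p was again Ndufa2, at 106, 106, 97.3 and 101 CPM, with a change of 0.18 ± 0.08 (0.01 to 0.35; edgeR adjusted p = 1.00). For 45 of the 47 members the 95% interval of the change lay within 1.5-fold of DMSO.

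Azoxystrobin at 1000 nM, a single library, had a subunit median of 0.18 (log2) and an assembly factor median of 0.02. Of the 39 subunits, 37 were above the DMSO mean, against 48.9% of all genes tested, and 4 of the 8 assembly factors were. No member was called by edgeR or by DESeq2, as was the case for 0% of all genes, and 3 subunits and 2.09% of all genes reached an unadjusted p under 0.05. This fit assumes that the lone library varies like those of the other compounds. Ndufa2 was at 120 CPM, a change of 0.41 ± 0.11 (0.18 to 0.64; edgeR adjusted p = 1.00). Ndufaf8 was at 6.58 CPM against 4.68 and 3.82 CPM in DMSO, a change of 0.63 ± 0.30 (-0.01 to 1.27). After the GC correction the subunit median was 0.13, and 30 of the 39 subunits were above the DMSO mean.

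All of these comparisons share the same 2 DMSO libraries, so values that recur from compound to compound are not independent. With that limit, 4 members had every library of picoxystrobin, pyraclostrobin and trifloxystrobin above both DMSO libraries, as did 2.83% of all genes tested. They were Ndufa2, Ndufa5, Ndufs1 and Ndufs6, a zinc-binding accessory subunit of the N module, and the last is named after its values were seen. Ndufs6 was at 26.3 and 28.3 CPM in DMSO, with 28.8 to 32.5 CPM for picoxystrobin, 29.5 to 32.9 CPM for pyraclostrobin and 29.2 to 36.2 CPM for trifloxystrobin.

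Within pyraclostrobin no nuclear member was called for a slope on concentration without the GC correction and 1, Ndufb10, was called with it. Of the 5 mitochondrially encoded subunits tested, 1 was called lower without the correction (mt-Nd6) and 4 with it (edgeR). The share of all genes called with the correction is not given here, so the corrected counts cannot be set against it. The median slope of the 39 nuclear subunits was 0.07 (log2 per 10-fold concentration) and that of the 8 assembly factors was 0.10. Among the members edgeR called 0 slopes, beside 1.14% of all genes tested (0.7% higher, 0.436% lower), with 2 subunits and 19.1% of all genes at an unadjusted p under 0.05, and DESeq2 called 0. The smallest p among subunits was that of Ndufb10, an accessory subunit of the membrane arm, at 63.3, 61.4, 90.5 and 91.7 CPM. Its slope was 0.42 ± 0.13 (0.13 to 0.71; edgeR adjusted p = 0.120), and 0.48 with the GC correction (edgeR adjusted p = 0.0335). Ndufaf3, which acts with Ndufaf4 on the Q module, was at 11.5, 12.5, 15.4 and 16.8 CPM, a slope of 0.39 ± 0.21 (edgeR adjusted p = 0.351).

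Of the 7 mitochondrially encoded subunits of complex I, 5 were tested, since mt-Nd3 and mt-Nd4l had 0 to 2 counts per library. Their median change with pyraclostrobin was 0.45, 0.36, -0.92 and -1.13 (log2) at 30, 100, 300 and 1000 nM. mt-Nd4, a proton-pumping subunit of the membrane arm, was at 6854 and 6955 CPM in DMSO and at 9647, 8884, 3374 and 2587 CPM with pyraclostrobin. mt-Nd6, which is transcribed from the other strand of mitochondrial DNA, was at 832 and 837 CPM in DMSO and at 1213, 1073, 360.1 and 305 CPM. Both genes were thus above DMSO at 30 and 100 nM and below it at 300 and 1000 nM. The slope of mt-Nd6 passed the test at -1.49 ± 0.31 (log2 per 10-fold; edgeR adjusted p = 0.0498), and that of mt-Nd4 was -1.41 ± 0.34 (edgeR adjusted p = 0.0629). The median slope of the 5 was -1.20, and -1.35 with the GC correction. mt-Nd1, next to the ubiquinone channel, was at 24961 and 23883 CPM in DMSO and at 28004 to 30025 CPM with pyraclostrobin, with a slope of -0.06 ± 0.12 (edgeR adjusted p = 0.834). Over the same libraries the summed level of the nuclear subunits was 3061, 3074, 3194 and 3161 CPM, against 2720 and 2792 CPM in DMSO.

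With picoxystrobin the median of the mitochondrially encoded subunits was 0.28, 0.21, 0.64 and -0.84 (log2) over the 4 concentrations, while the nuclear subunit median was 0.07, -0.02, -0.00 and 0.12. The median fitted change of the 5 at 30 to 300 nM turned from 0.39 to -0.12 with the GC correction. With trifloxystrobin it was -0.06, 0.15, 0.07 and -0.13, and with azoxystrobin at 1000 nM it was 0.21. The difference between nuclear and mitochondrially encoded subunits was not tested.

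**Figure D4:**
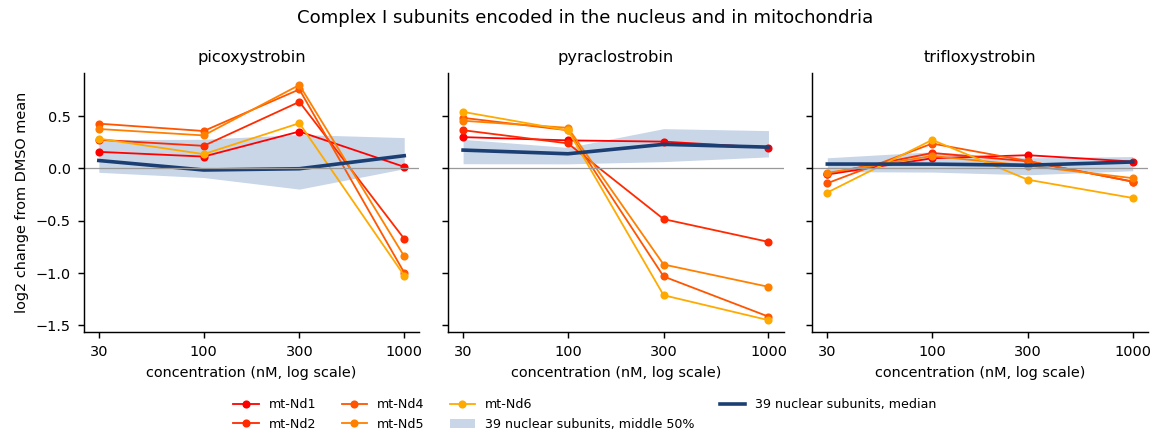
Change from the DMSO mean (vertical axis, log2) against concentration in nM (horizontal axis, log scale) for 3 compounds, with 5 mitochondrially encoded subunits as thin lines and the median and middle 50% of the 39 nuclear subunits as a thick line and band. With pyraclostrobin the nuclear median, without the GC correction, is at 0.14 to 0.23 while mt-Nd4 is at 9647 CPM at 30 nM and at 2587 CPM at 1000 nM.

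Slopes of the members with picoxystrobin and trifloxystrobin gave 0 calls with edgeR and with DESeq2, as for 0% of all genes tested. At an unadjusted p under 0.05 there were 2 members for picoxystrobin (9.7% of all genes) and 2 for trifloxystrobin (1.19%). For picoxystrobin the subunit of smallest p was Ndufb9, with a slope of 0.35 ± 0.13 (edgeR adjusted p = 0.513), which rested on the library at 1000 nM and was -0.07 without it. The assembly factor was Ndufaf8, with 0.23 ± 0.21, which was -0.44 without that library. For trifloxystrobin they were Ndufs5, with -0.29 ± 0.13, and the methyltransferase Ndufaf7, with 0.25 ± 0.11 (edgeR adjusted p = 1.00 for both). Differences between the slopes of 2 compounds also gave 0 calls with either tool and 0% of all genes. At an unadjusted p under 0.05 there were 3 members for pyraclostrobin minus picoxystrobin (10.3% of all genes), 2 for pyraclostrobin minus trifloxystrobin (8.85%) and 1 for picoxystrobin minus trifloxystrobin (1.71%). The slope of Ndufb9 was lower with pyraclostrobin than with picoxystrobin by -0.48 ± 0.18 (edgeR adjusted p = 0.484), that of Ndufb10 differed by 0.46 ± 0.19 between pyraclostrobin and trifloxystrobin (edgeR adjusted p = 0.526), and that of Ndufs3 by -0.37 ± 0.16 between picoxystrobin and trifloxystrobin (edgeR adjusted p = 1.00). The assembly factors of smallest p were Ndufaf2, with differences of 0.48 ± 0.29 (pyraclostrobin minus picoxystrobin) and 0.42 ± 0.30 (pyraclostrobin minus trifloxystrobin), and Ndufaf7, with -0.30 ± 0.16 (picoxystrobin minus trifloxystrobin).

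The compounds share the strobilurin pharmacophore but differ in its end group, which is a methoxyacrylate in azoxystrobin and picoxystrobin, a methoxycarbamate in pyraclostrobin and an oximinoacetate in trifloxystrobin. Picoxystrobin, pyraclostrobin and trifloxystrobin were compared at matched concentrations in 3 pairs, with concentration as a block, and p-values adjusted over all genes tested. The subunit median of pyraclostrobin exceeded that of trifloxystrobin by 0.10, 0.09, 0.19 and 0.21 (log2) at 30, 100, 300 and 1000 nM, and that of picoxystrobin by 0.04, 0.09, 0.21 and 0.15. Picoxystrobin minus trifloxystrobin gave 0.06, -0.03, -0.01 and 0.07. The means were 0.15 ± 0.06, 0.12 ± 0.07 and 0.02 ± 0.05 (SD, n = 4). With the GC correction they were 0.10 ± 0.05, 0.06 ± 0.07 and 0.06 ± 0.02, so the second no longer exceeded its spread over concentrations and the third did. For the assembly factors the means were 0.13 ± 0.14, 0.07 ± 0.09 and 0.01 ± 0.09.

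No single member was called in a pair by edgeR. All genes tested gave 0.0143% for pyraclostrobin against trifloxystrobin, 0.0143% for pyraclostrobin against picoxystrobin and 0% for picoxystrobin against trifloxystrobin. In the same order, 12, 7 and 6 members were higher at an unadjusted p under 0.05, against 8.37%, 5.68% and 3.78% of all genes tested, none was lower, and DESeq2 called 1, 0 and 0 members. Ndufb3 was 27.7, 30.6, 35.6 and 36.5 CPM with pyraclostrobin, 31.1, 32.9, 30.6 and 27.1 CPM with picoxystrobin and 20.7, 26.2, 22.5 and 25.3 CPM with trifloxystrobin. Pyraclostrobin was above trifloxystrobin at each concentration, by 0.46 ± 0.12 (log2; 0.21 to 0.72; edgeR adjusted p = 0.164), and picoxystrobin was as well, by 0.37 ± 0.12 (0.12 to 0.62; edgeR adjusted p = 0.589). Ndufaf2 was 8.95, 12.7, 10.1 and 8.85 CPM with trifloxystrobin, and pyraclostrobin exceeded it by 0.58 ± 0.17 (0.20 to 0.95; edgeR adjusted p = 0.187), with 1 of 4 concentrations, 100 nM, going the other way. Picoxystrobin minus trifloxystrobin was 0.37 ± 0.17 for this gene (-0.01 to 0.74; edgeR adjusted p = 0.589). Between pyraclostrobin and picoxystrobin the members of smallest p were Ndufb8, an accessory subunit of the membrane arm, with 0.27 ± 0.10 (0.06 to 0.49; edgeR adjusted p = 0.359), and Ndufaf3, with 0.24 ± 0.15 (-0.09 to 0.57; edgeR adjusted p = 0.545).

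These misses do not show that the compounds act alike on complex I genes. The intervals bound only the mean difference over the matched concentrations, and not the difference at a single concentration. The 95% interval lay within 1.5-fold for 39 of 47 members in pyraclostrobin against trifloxystrobin, and for 44 of 47 in each of the other pairs. It lay within 2-fold for 47 of 47 in all 3 pairs. Ndufa6 was among those within 1.5-fold for picoxystrobin against trifloxystrobin. Its levels with these compounds were 338 and 215 CPM at 300 nM, but 193 and 227 CPM at 1000 nM, so opposite differences entered the mean. With the library at 1000 nM of picoxystrobin left out, 9 members differed between picoxystrobin and trifloxystrobin, in place of 0. The share of all genes called in that fit is not given here, so the 9 cannot be set against it.

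**Figure D5:**
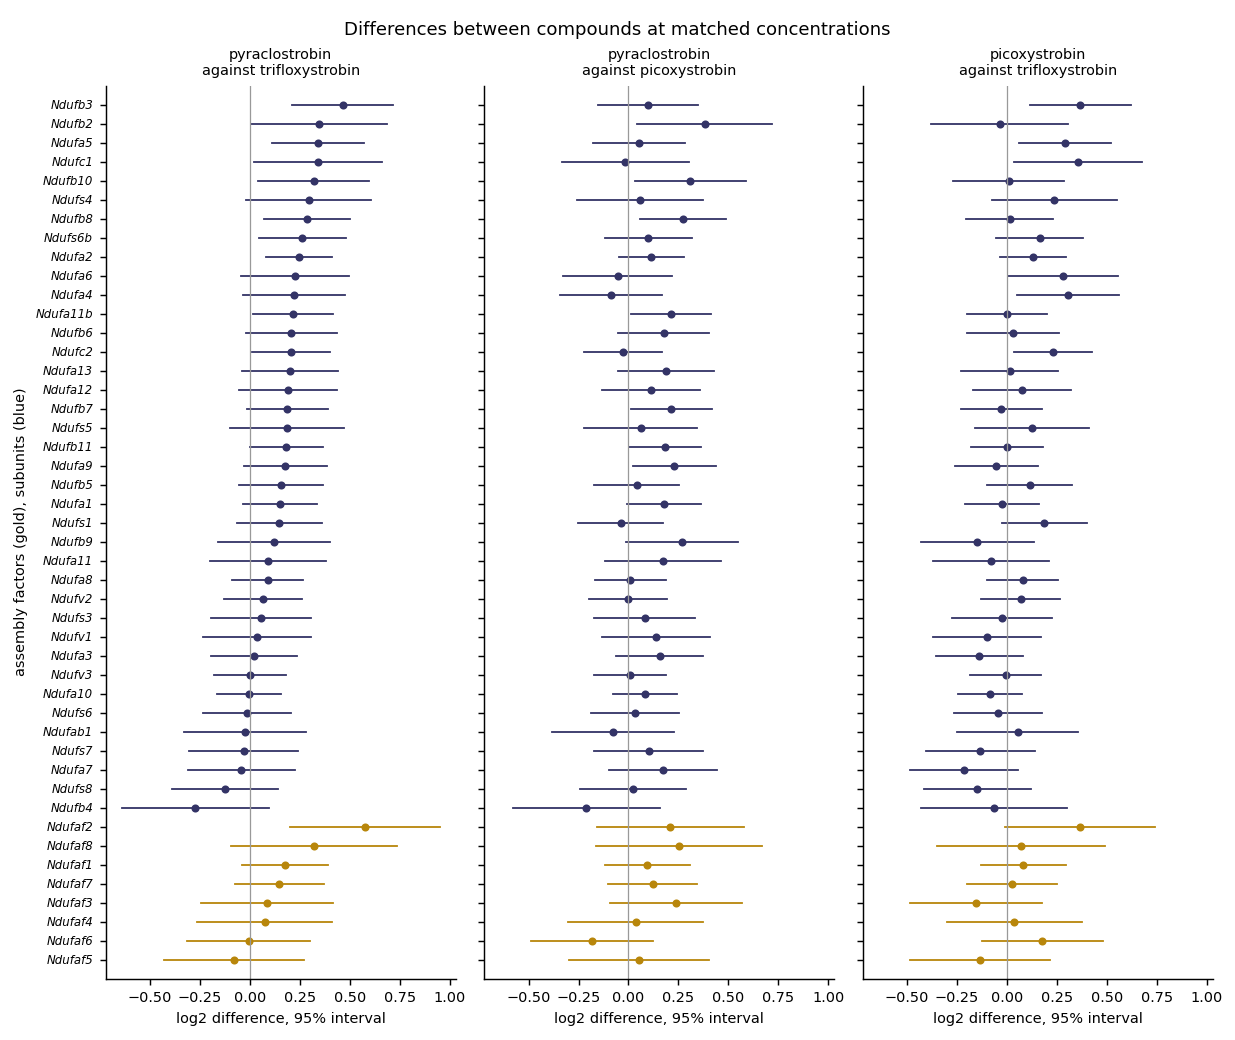
Difference between compounds at matched concentrations (horizontal axis, log2, with 95% intervals) for 46 members (vertical axis), subunits in blue and assembly factors in gold. Points are fitted differences over 4 concentrations, and in pyraclostrobin against trifloxystrobin 36 of 46 lie above 0.

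Medians above 0 with pyraclostrobin were also found in lists other than complex I. The median fitted change was 0.18 (log2) for the 39 nuclear subunits of complex I and 0.16 for their 8 assembly factors named Ndufaf, and 0.17 for the 11 assembly factors with other names, of which 0 were called by edgeR. It was 0.19 for the 4 nuclear genes of complex II, 0.29 for the 9 of complex III, 0.18 for the 10 of complex IV and 0.09 for the 15 of complex V. Mitochondrial ribosomal proteins had a median of 0.15 (77 genes) and cytosolic ribosomal proteins 0.16 (84 genes), against 0.01 for all 14004 genes tested. With the GC correction the medians were 0.11, 0.06 and 0.14 for the 3 complex I lists, 0.11, 0.16, 0.14 and 0.04 for complexes II to V, and 0.11 and 0.08 for the mitochondrial and cytosolic ribosomes. The edgeR test called 1 gene of complex III and 3 of the cytosolic ribosome, all higher. Whether the complex I genes differed from these lists was not tested.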

How the data were processed

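RNA-seq libraries of C17.2α cells were made by the authors from total RNA (SENSE kit, Lexogen), read from a single end on a NextSeq500, and counted per gene with htseq-count. The deposited tables hold raw read counts per gene for each library, neither normalized nor pooled. The submitters' processing notes name Bowtie2 2.3.2.2 and mm10, and the annotation and the strand setting were not given in the sources used here.

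Libraries were grouped by the compound and concentration in their labels. The members and gene lists were chosen with earlier results of these data known. All 120 pairs of libraries were compared, and the azoxystrobin library at 100 nM, identical to a DMSO library, was left out, so that 15 of 16 entered. Counts were scaled by TMM and tested by the edgeR 4.0.16 quasi-likelihood test in R 4.3.3 on the 14004 genes with a mean of at least 1 CPM, with 1 level per compound, with calls at a Benjamini-Hochberg adjusted p under 0.05. The study's methods used DESeq2 (here 1.42.0, as an alternative). Other models gave picoxystrobin at 1000 nM its own level, fitted slopes on log10 concentration, or compared compounds with concentration as a block. Standard errors came from the test statistic, and a prior count of 2 was added for the log2 value of a library. The GC correction fitted splines (4 degrees of freedom) on length and GC percentage, both taken from the longest GENCODE vM21 transcript (GRCm38), known for 13929 genes tested (99.46%), and entered as an offset. At 57 reads or more per member and a common dispersion of 0.0163, counting error and the spread between libraries both limit precision.

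Named are the nuclear core subunits, Ndufa4 and Ndufa4l2, the levels per kilobase at either end, and per comparison the called members of smallest p (up to 5 subunits and 3 assembly factors) or, with none called, 1 of each, apart from items that are not reported here. Alternatives included a robust fit, separate fits, DESeq2, scaling by RLE, other filters, the GC correction, a prior count of 0.5, single DMSO references, all 16 libraries, concentration subsets, and each library left out. Counting non-overlap under RLE and the GC correction, and leaving out the gene copies, were added after seeing the data. Tested on simulated data, in which 200 of 14004 genes changed by 1 log2 unit, the test recovered 97% of them for picoxystrobin and 99.5% for pyraclostrobin against picoxystrobin, with 4.9% and 5.24% of calls unchanged genes. For the slope difference of these compounds 61.5% were recovered. Fitted values of the 47 members were smaller, at -0.26 to 0.50 (log2) for picoxystrobin and -0.21 to 0.38 for pyraclostrobin against picoxystrobin. For the slope difference they were -0.48 to 0.53. Recovery at sizes below 1 log2 unit was not tested. Promoters came from RefSeq, transcripts were aligned with biopython 1.88, and figures were drawn with matplotlib 3.10.9 from tables made with pandas 2.3.3 in Python 3.11.15.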

Additional observations from a re-analysis of the deposited data

Results flagged for a closer look

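In 4 of the 78 sets of 4 libraries tested (the named members and the medians, for each of 3 compounds), 1 library lay far from the other 3 by Dixon's criterion, against 3.9 that chance gives. Ndufb9, a membrane arm subunit, was high with picoxystrobin at 1000 nM, at 165 CPM against 104 to 109 CPM at the lower concentrations. The arginine hydroxylase Ndufaf5 was high with picoxystrobin at 100 nM, at 6.85 CPM, and the methyltransferase Ndufaf7 was high in the same library, at 28.7 CPM. Ndufs5, of the membrane arm, was low with pyraclostrobin at 30 nM, at 11.2 CPM against 13.3 to 13.5 CPM. Ndufaf5 had 96 to 146 reads in a library.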

How the results depend on the processing

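Precision was limited by 2 DMSO libraries and 1 library per concentration. Shares of all genes called are given for the main edgeR fits only, so counts of members called in alternative fits have no background beside them. Members called, with 1 library left out, ranged from 0 to 15 for picoxystrobin (15 without 1000 nM), 0 to 7 for pyraclostrobin, 0 to 16 for picoxystrobin at 30 to 300 nM, 0 to 7 for the picoxystrobin slope (7 without 300 nM), 0 to 1 for the pyraclostrobin slope, 0 to 1 for pyraclostrobin against trifloxystrobin and 0 to 9 for picoxystrobin against trifloxystrobin (9 without 1000 nM), and 0 to 0 elsewhere. For pyraclostrobin the count was 0 without either DMSO library, picoxystrobin at 30 or 100 nM, pyraclostrobin at 300 or 1000 nM, or trifloxystrobin at 300 or 1000 nM, 1 without trifloxystrobin at 30 or 100 nM, 4 without pyraclostrobin at 100 nM and 7 without picoxystrobin at 1000 nM. DESeq2 called 1 member for picoxystrobin, 4 for pyraclostrobin and 1 for pyraclostrobin against trifloxystrobin. With no filter on low counts there were 1 for picoxystrobin, 1 for the pyraclostrobin slope and 2 for pyraclostrobin against trifloxystrobin. A separate fit gave 0 for pyraclostrobin. At 30, 100 and 300 nM only, pyraclostrobin against picoxystrobin gave 1 (Ndufb9) and picoxystrobin against trifloxystrobin gave 3. The GC correction left 4 for picoxystrobin at 30 to 300 nM and gave 1 for the pyraclostrobin slope. For pyraclostrobin it gave 2, Ndufa2 and Ndufa13, without Ndufb3. With it, subunits apart from DMSO with pyraclostrobin were 12 above and 3 below (16.4% of all genes each). With trifloxystrobin 9 were above (7.01%) and 1 was below (6.83%). The subunit median became 0.13 for azoxystrobin, 0.12 for pyraclostrobin and 0.027 for trifloxystrobin, and the assembly factor median for picoxystrobin became -0.016. Directions turned with the GC correction for Ndufv2 with pyraclostrobin (-0.061), and, with picoxystrobin at 30 to 300 nM, for Ndufv1 (0.087), Ndufv2 (-0.13) and Ndufs7 (0.097). With 1 library left out, Ndufs3 ranged from -0.029 to 0.22 with pyraclostrobin and from -0.051 to 0.20 with picoxystrobin at 30 to 300 nM, the lower end without the second DMSO library, and the picoxystrobin slopes ranged from -0.073 to 0.61 for Ndufb9 and from -0.44 to 0.62 for Ndufaf8, the lower end without the library at 1000 nM. None of these genes was called in the comparison concerned, and the cause was not tested. Of the other alternatives, 344 values of counts and medians and 870 of single genes kept their direction and side of the threshold, and 31 and 20 single-gene values crossed it downward and upward. No paired analysis was possible because only the DMSO libraries carry replicate numbers in the labels, which concerns comparisons with DMSO, while pairs of compounds were matched by concentration. Without concentration as a block, 0 members were called in each pair.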
